A study of Mus musculus with 38 samples.

Results

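Cholesterol is made, taken up, stored and exported by a small set of well-known genes, and 31 of them were followed here through oxygen deprivation, co-culture and drug treatment of mouse microglia-like cells, glioma cells and macrophages. The members are a list of symbols, chosen by function and matched to Ensembl identifiers, and all 31 were found among the 55487 identifiers of the count tables. They comprise 8 genes of acetoacetyl-CoA supply and the mevalonate steps, 4 genes whose enzymes use molecular oxygen on the way from squalene to cholesterol, 7 genes of the other steps on that route, 5 genes of sterol sensing, 2 genes of transport and storage, and 5 genes of the liver X receptor (LXR) arm. Poly(A) RNA was sequenced from 38 libraries in 18 groups. BV2 is an immortalised mouse microglial line, GL261 is a mouse glioma line that here stably carried pEGFP-N1, and BMDM are primary macrophages grown from the bone marrow of wild-type (WT) mice. In the first experiment each of the 3 cell types was grown alone or in direct co-culture for 16 h in normoxia (21% oxygen) or hypoxia (under 0.1% oxygen). BV2 cells were co-cultured with 2 GL261 cells each and BMDM with 1 GL261 cell each, and GL261 RNA was read only from cultures alone and from those with BV2. In the second experiment BV2 cells or BMDM, grown alone, received DMSO in normoxia, DMSO in hypoxia, or, in hypoxia, the histone deacetylase inhibitor panobinostat at 10 nM, again for 16 h. Each group had 2 libraries; BMDM co-cultures had 3 at either oxygen level. BV2 cells were kept in medium with 2% and BMDM in medium with 10% fetal bovine serum, an outside source of lipoprotein cholesterol, and the medium of GL261 monocultures was not given, so serum and cell type, or serum and GL261 culture, cannot be told apart. How co-cultured cells were separated before RNA extraction was not given either.

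As background, acetyl-CoA is built through mevalonate into squalene, and squalene is oxidised, cyclised and trimmed into cholesterol in the endoplasmic reticulum. SREBP transcription factors, encoded by Srebf1 and Srebf2, switch most of these genes on when sterols run low. SCAP carries the SREBP precursors to the Golgi for cleavage, and the INSIG proteins hold SCAP back when sterols are plentiful. LXR, encoded by Nr1h2 and Nr1h3, works in the opposite sense: bound to oxysterols, it switches on the exporters ABCA1 and ABCG1 and the ubiquitin ligase MYLIP, which lowers the receptors that take up lipoproteins. Surplus cholesterol is esterified by the enzyme that Soat1 encodes. Several of the enzymes after squalene use molecular oxygen directly, and INSIG2 is known to be raised by hypoxia-inducible factors in other cells. Macrophages and microglia handle much cholesterol taken up from other cells and from debris.

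Start-site sequences are shown for 5 members on which the results below turn: Insig2, the most constant riser in hypoxia; Insig1, its sterol-responsive relative; Hmgcs1, an early synthesis gene; Lss, a synthesis gene that rose in hypoxic BV2 cells; and Abca1, the LXR-driven exporter. RefSeq windows (GRCm38.p6) running from 250 bases before to 50 bases after a start were at hand for 26 of the 31 members. Those of Sqle, Fdps, Fdft1, Abcg1 and Stard4 were not used. The sequences read 5′ to 3′ along the strand of the gene, end at the start site or at the nearest annotated exon, and are in lower case. Capitals mark the sterol regulatory element TCACNCCAC, the CCAAT box, the E-box CACGTG and the hypoxia-response cores ACGTG and GCGTG, each searched on both strands; the E-box contains ACGTG.
Insig2 (chr1:121328025-121328091, minus strand): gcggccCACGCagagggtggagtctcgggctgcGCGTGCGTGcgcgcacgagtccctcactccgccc
Insig1 (chr5:28071162-28071362, plus strand): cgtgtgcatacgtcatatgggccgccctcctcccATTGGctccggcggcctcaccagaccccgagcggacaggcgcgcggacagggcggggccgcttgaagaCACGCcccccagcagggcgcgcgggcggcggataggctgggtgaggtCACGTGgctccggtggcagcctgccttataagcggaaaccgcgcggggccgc
Hmgcs1 (chr13:119690101-119690350, plus strand): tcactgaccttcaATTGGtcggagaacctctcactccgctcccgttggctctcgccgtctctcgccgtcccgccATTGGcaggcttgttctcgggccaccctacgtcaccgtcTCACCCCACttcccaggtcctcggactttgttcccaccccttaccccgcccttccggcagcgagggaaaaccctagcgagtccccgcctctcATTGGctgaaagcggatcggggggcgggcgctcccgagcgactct
Lss (chr10:76531355-76531587, plus strand): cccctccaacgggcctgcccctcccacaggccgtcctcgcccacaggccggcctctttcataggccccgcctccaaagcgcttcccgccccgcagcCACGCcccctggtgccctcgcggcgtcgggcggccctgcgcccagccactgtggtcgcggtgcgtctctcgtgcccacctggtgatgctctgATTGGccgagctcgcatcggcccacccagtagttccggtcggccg
Abca1 (chr4:53159896-53160145, minus strand): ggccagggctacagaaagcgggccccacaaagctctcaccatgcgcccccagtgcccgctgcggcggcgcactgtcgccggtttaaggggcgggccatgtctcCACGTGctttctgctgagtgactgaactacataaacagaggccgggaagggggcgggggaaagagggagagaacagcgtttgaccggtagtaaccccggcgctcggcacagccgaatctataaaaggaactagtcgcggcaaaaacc

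The Insig2 stretch, 67 bases before 1 of its 3 RefSeq starts, held 3 hypoxia-response cores on the 2 strands together, while the windows of its other starts held 1 and 0. The Hmgcs1 stretch held the only exact match to TCACNCCAC among the 26 members, and variants of this sterol regulatory element were not searched. Over whole windows, an exact match was present in 3.85% of the 26 members and in 1.44% of 27025 genes with a window. The CCAAT box, the site of the NF-Y factor that works beside SREBP, was present in 80.8% of members and 41.1% of all genes. The E-box was present in 23.1% and 8.09%, and a hypoxia-response core in 61.5% and 46.7%. These shares describe letters only, and no binding or accessibility was measured for them here.

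Total counts ran from 13548843 to 27238933 in the 16 first-experiment libraries of BV2 and GL261, from 9909367 to 17000536 in the 10 BMDM libraries, and from 9634700 to 15869246 in the 12 libraries of the panobinostat experiment. Values per library are CPM, counts scaled to a common library size within each cell type and experiment, and a floor of 3 counts stands for what a count of 0 allows, for counting error only. The labels call the lines' libraries biological replicates, but no label ties a library to a separate culture or mouse, so p-values measure the spread between these libraries, which may be technical. A check list of 6 genes known to rise without oxygen summed to 166.0 to 548.8 CPM in normoxic and 1394.9 to 7227.2 CPM in hypoxic libraries of the first experiment. Of 10 myeloid markers, the sum was 1.98 to 4.32 CPM in GL261 monocultures, 7.41 to 35.3 CPM in co-cultured GL261, and at least 3221.0 CPM in all BV2 and BMDM libraries of the first experiment. The microglial marker Aif1 was near the floor in BV2 monocultures (0.713 to 1.66 CPM), while the myeloid receptor gene Csf1r was not (518.8 to 1137.4 CPM). RNA of the partner cell was measurable in co-cultures: genes with a 100-fold or higher level in partner cells stood at 0.565% to 2.33% of the partner's level in BV2, 0.214% to 0.915% in GL261 and 1.34% to 5.94% in BMDM co-cultures, against 0.0571% or less in monocultures. Of the BMDM given DMSO in normoxia, replicate 1 stood apart, with 113.2 CPM of the low-oxygen gene Bnip3 against 21.8 CPM in replicate 2, and 974.0 against 206.5 CPM of Itgam. Fewer cells of a type and less RNA per cell cannot be told apart in such bulk libraries.

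Per kilobase of exon, which allows genes to be compared, the most abundant members in normoxic BV2 monocultures were Insig1 (mean 77.1 CPM per kilobase, 67.9 and 86.3 in the 2 libraries), Cyp51 (69.2), Srebf2 (62.1), Soat1 (61) and Sqle (59). The libraries of these 5 overlapped with at least 1 neighbour in that order. In normoxic GL261 monocultures Cyp51 led (45.4), followed by Sqle (35.9), Insig1 (35.3) and Srebf2 (35.3). In normoxic BMDM monocultures the leading members were not enzymes but regulators: Nr1h2 (47), Srebf2 (40.8) and Srebf1 (28.5). Fdps was among the 3 lowest members in each of the 3 cell types (1.93, 1.35 and 0.979 CPM per kilobase in BV2, GL261 and BMDM). Its counts may hold only part of its reads, since 26.71% of its exon bases overlap another gene on the same strand. The exporters split the cell types: Abca1 had 0 or 1 counts and Abcg1 4 to 7 counts in each GL261 monoculture library, so both stayed out of the tests within GL261, where 29 members were tested.

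Cholesterol genes changed with hypoxia in all 3 cell types, in GL261 at about the share at which all genes did, counting both directions. In BV2 cells more members rose than fell, among them Mvd, Lss and Fdft1 of the synthesis route and, in the first experiment only, Sqle. In BMDM most members that changed fell, and in GL261 monocultures likewise. Insig2 was the most constant riser, up in 7 of the 8 hypoxia comparisons. Acat2 and Dhcr7, near the start and at the end of the route, fell in all 6 comparisons of the first experiment. The words rose and fell are used for members whose p, adjusted over all genes tested in that cell type, was under 0.05. Whether the libraries of 2 groups overlapped is given as description only. Normoxic and hypoxic BV2 monocultures did not overlap for 29 of 31 members, called or not. Overlap was not counted over all genes, so it adds no support to a call.

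In BV2 monocultures 16 of 31 members rose and 7 fell, against 30.9% and 31% of all genes tested; the median log2 fold change of the members was 0.35 and that of all genes 0.00. DESeq2 split the members into 17 up and 4 down. In co-cultured BV2 cells 14 rose and 9 fell, where 35.2% of all genes rose and 32.1% fell (medians 0.28 and 0.04). In GL261 monocultures 3 of 29 rose and 10 fell, beside 23.2% and 21.4% of all genes (medians -0.27 and -0.03). In co-cultured GL261, 8 rose and 8 fell, beside 26.8% and 25.6% (medians -0.07 and -0.04). In BMDM monocultures 6 of 31 rose and 12 fell, beside 13.3% and 10.6% of all genes (medians -0.34 and 0.03). In co-cultured BMDM 5 rose and 17 fell, beside 17.5% and 17.3% (medians -0.47 and 0.03). Read against these backgrounds, the share of BMDM members that fell was well above that of all genes, and so was the share of BV2 monoculture members that rose. GL261 members called, 13 of 29 alone and 16 of 29 in co-culture, were near the share of all genes called in either direction. By direction, GL261 monocultures departed from this background. Their falls (10 of 29) lay above the 21.4% of all genes, and their rises (3 of 29) below the 23.2%. In co-cultured GL261 rises and falls (8 of 29 each) were both near their backgrounds. Members called in co-cultured BV2 were little above the share of all genes called in either direction. Their rises (14 of 31) lay above the 35.2% of all genes, and their falls (9 of 31) were near the 32.1%. The GL261 monoculture count of 13 became 8 without normoxic replicate 1 and 10 to 12 without each other library. The BMDM monoculture count of 18 became 5 without normoxic replicate 1 or hypoxic replicate 2, 10 without normoxic replicate 2 and 8 without hypoxic replicate 1. Each such fit leaves 1 library in an arm, which is then assumed to vary like the others.

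Monoculture and co-culture of 1 cell type share no libraries in these comparisons. Of the members called in both, the direction was the same for 19 of 19 in BV2, 10 of 10 in GL261 and 16 of 16 in BMDM. Such agreement was not counted over all genes, so it cannot be read as particular to the members. Between cell types the directions parted: Fdft1, Fdps, Nsdhl, Sqle and Tm7sf2 rose in BV2 monocultures and fell in GL261 monocultures, and Fdps, Nsdhl and Stard4 rose in BV2 monocultures and fell in BMDM monocultures.

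**Figure D1:**
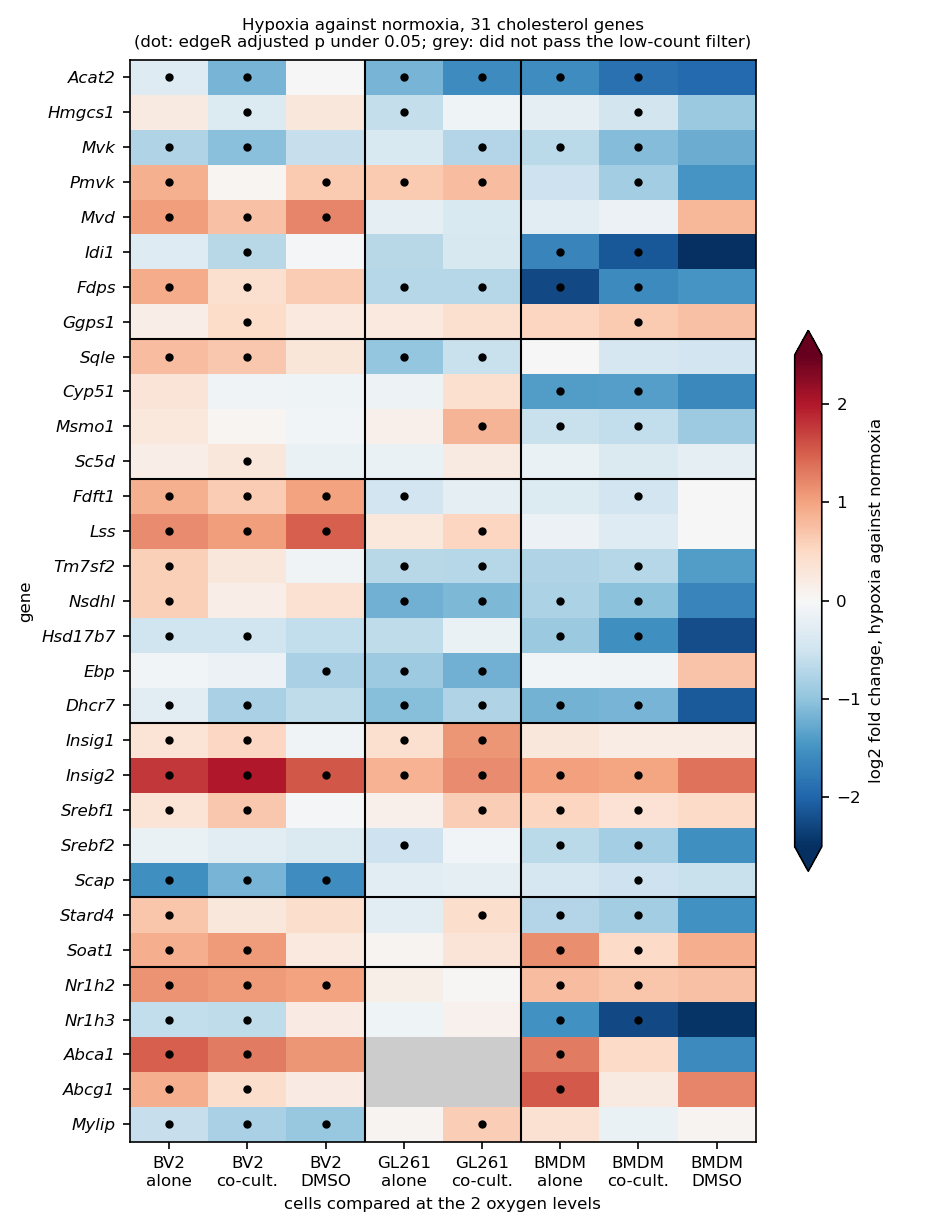
Log2 fold change of hypoxia against normoxia for the 31 members (rows, grouped by role) in 8 comparisons (columns); a dot marks an adjusted p under 0.05 and grey a member with too few counts to be tested. The Insig2 row is red in all 8 columns and dotted in 7, and the Acat2 and Dhcr7 rows are blue and dotted in the 6 columns of the first experiment.

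Among the 5 sterol-sensing genes, Insig2 rose wherever hypoxia was tested except in DMSO-treated BMDM, Srebf1 rose in 5 comparisons, Insig1 rose in 4, Scap fell in 4 and Srebf2 fell in 3; none of the 5 was called in opposite directions in different hypoxia comparisons. Values in parentheses after the levels are log2 fold changes ± SE, and gene positions are on mm10. Insig2 (chr1:121304353-121332589), whose protein holds SCAP in the endoplasmic reticulum, had 23.2 and 24.4 CPM in normoxia and 79.7 and 82.7 CPM in hypoxia in BV2 monocultures, a log2 fold change of 1.77 ± 0.12 (adjusted p 2.96e-09 with edgeR). In co-cultured BV2 cells it had 26.7 and 23.7 CPM in normoxia and 103.5 and 97.5 CPM in hypoxia (2.00 ± 0.12). The hypoxic libraries stood clearly above the normoxic ones in both settings, without overlap. In GL261 the change was smaller, with 24.1 and 26.4 CPM in normoxia and 47.2 and 44.9 CPM in hypoxia in monoculture (0.87 ± 0.14), and 26 and 25.1 CPM in normoxia and 51.5 and 64.9 CPM in hypoxia in co-culture (1.19 ± 0.15). In BMDM it had 18.4 and 14.5 CPM in normoxia and 35.9 and 31.6 CPM in hypoxia in monoculture (1.03 ± 0.19), a call lost without normoxic replicate 2 (adjusted p 0.0687). Co-cultured BMDM had 15.8, 14.2 and 12.7 CPM in normoxia and 26.8, 31.8 and 25.9 CPM in hypoxia (0.98 ± 0.16). In each of these settings all hypoxic libraries were above all normoxic ones.

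Insig1 (chr5:28071363-28078662), a target of SREBP as well as a brake on it, rose in both BV2 and both GL261 settings. Its levels were 209.9 and 267.0 CPM in normoxia and 291.2 and 318.2 CPM in hypoxia in BV2 monocultures, a log2 fold change of 0.35 ± 0.14 and a call lost without normoxic replicate 1 or hypoxic replicate 2 (adjusted p 0.14 to 0.349). In co-cultured BV2 cells they were 188.0 and 236.8 CPM in normoxia and 311.9 and 291.6 CPM in hypoxia (0.51 ± 0.14), a call lost without normoxic replicate 1 or hypoxic replicate 1 (adjusted p 0.0555 to 0.082). The BV2 rises were thus small, and the largest rise of Insig1 was in co-cultured GL261, which had 94.5 and 121.0 CPM in normoxia and 234.8 and 228.7 CPM in hypoxia (1.10 ± 0.15). GL261 monocultures had 100.4 and 117.8 CPM in normoxia and 156.9 and 133.6 CPM in hypoxia (0.41 ± 0.15), a call lost without normoxic replicate 1 or hypoxic replicate 1 (adjusted p 0.185 to 0.241). In BMDM the Insig1 difference did not pass the test in monoculture (0.28 ± 0.18) or in co-culture (0.18 ± 0.15).

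Scap, whose protein escorts SREBP, fell most in BV2. It had 106.6 and 108.4 CPM in normoxia and 38 and 36 CPM in hypoxia in BV2 monocultures (-1.54 ± 0.11, adjusted p 9.06e-09) and 66.1 and 73.3 CPM in normoxia and 31.3 and 30.9 CPM in hypoxia in co-cultured BV2 (-1.17 ± 0.11). In co-cultured BMDM it had 82.1, 69.3 and 60.7 CPM in normoxia and 52.8, 47.9 and 48.1 CPM in hypoxia (-0.51 ± 0.13). BMDM monocultures differed by -0.42 ± 0.16, GL261 monocultures by -0.27 ± 0.13 and co-cultured GL261 by -0.25 ± 0.13, none of which passed the test. Of the 75-base words of Scap, 8.26% also occur in another gene, most in 5830462I19Rik, which overlaps it on the other strand, and whether counting used strand was not given in the sources used here.

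The SREBP genes themselves parted. Srebf1, which encodes the form most tied to fatty acid genes, had 198.2 and 223.7 CPM in normoxia and 284.9 and 252.5 CPM in hypoxia in BV2 monocultures (0.35 ± 0.12), a call lost without normoxic replicate 1 or hypoxic replicate 1 (adjusted p 0.113 to 0.167). It had 125.6 and 145.1 CPM in normoxia and 228.3 and 205.8 CPM in hypoxia in co-cultured BV2 (0.68 ± 0.12). Co-cultured GL261 had 248.1 and 209.2 CPM in normoxia and 369.3 and 327.0 CPM in hypoxia (0.61 ± 0.14), a call lost without normoxic replicate 2 (adjusted p 0.0505). All hypoxic libraries were above the normoxic ones in these 3 settings. BMDM monocultures had 169.4 and 151.4 CPM in normoxia and 246.1 and 220.9 CPM in hypoxia (0.54 ± 0.14), a call lost without any 1 of its 4 libraries (adjusted p 0.0809 to 0.252). Co-cultured BMDM had 164.0, 177.9 and 161.4 CPM in normoxia and 209.1, 221.2 and 218.8 CPM in hypoxia (0.37 ± 0.12), a call lost without normoxic replicates 1 or 3 or hypoxic replicates 2 or 3 (adjusted p 0.0526 to 0.108). Srebf2, which encodes the form most tied to cholesterol synthesis, fell in BMDM and in GL261 monocultures. It had 271.0, 218.8 and 220.0 CPM in normoxia and 132.1, 117.0 and 145.1 CPM in hypoxia in co-cultured BMDM (-0.85 ± 0.14) and 314.5 and 271.7 CPM in normoxia and 192.9 and 172.6 CPM in hypoxia in BMDM monocultures (-0.68 ± 0.17), a call lost without normoxic replicate 1 or hypoxic replicates 1 or 2 (adjusted p 0.0594 to 0.127). GL261 monocultures had 240.4 and 266.3 CPM in normoxia and 206.0 and 147.2 CPM in hypoxia (-0.52 ± 0.16), a call lost without normoxic replicate 2 or hypoxic replicate 2 (adjusted p 0.114 to 0.143). In BV2 the Srebf2 differences were -0.17 ± 0.13 and -0.27 ± 0.13 and did not pass the test.

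The 8 supply and mevalonate genes split within the pathway as well as between cells: 3 rose and 2 fell in BV2 monocultures, 3 rose and 4 fell in co-cultured BV2, 1 rose and 3 fell in GL261 in either setting, 4 fell in BMDM monocultures, and 1 rose and 6 fell in co-cultured BMDM. Acat2 (chr17:12942890-12960747), which joins acetyl-CoA units, fell in all 6. It had 52.4 and 46.1 CPM in normoxia and 23.8 and 19.9 CPM in hypoxia in GL261 monocultures (-1.17 ± 0.14, adjusted p 8.04e-05) and 56.7 and 57.5 CPM in normoxia and 20 and 18.4 CPM in hypoxia in co-cultured GL261 (-1.57 ± 0.14). BMDM had 18.8 and 15.8 CPM in normoxia and 5.81 and 5.94 CPM in hypoxia in monoculture (-1.56 ± 0.31) and 25.6, 19.7 and 26.4 CPM in normoxia and 5.92, 4.46 and 9.39 CPM in hypoxia in co-culture (-1.86 ± 0.25). In both cell types every hypoxic library was below every normoxic one. Co-cultured BV2 had 123.1 and 146.8 CPM in normoxia and 64.7 and 55.2 CPM in hypoxia (-1.17 ± 0.14). The fall in BV2 monocultures was slight, from 99.2 and 105.2 CPM to 91 and 71.5 CPM (-0.33 ± 0.13), a call lost without normoxic replicates 1 or 2 or hypoxic replicate 2 (adjusted p 0.0729 to 0.45). Acat2 shares 33.93% of its 75-base words, most with Acat3, so its counts are uncertain where reads were divided between them.

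Mvk, the mevalonate kinase, fell in 5 comparisons. It had 24.5 and 24.6 CPM in normoxia and 17.7 and 11.6 CPM in hypoxia in BV2 monocultures (-0.75 ± 0.19), a call lost without hypoxic replicate 2 (adjusted p 0.0653), and 25.8 and 33.5 CPM in normoxia and 16.5 and 12.4 CPM in hypoxia in co-cultured BV2 (-1.04 ± 0.19). The other changes of Mvk, all falls, were -0.73 ± 0.16 in co-cultured GL261, -1.08 ± 0.17 in co-cultured BMDM and -0.67 ± 0.20 in BMDM monocultures, a call lost without any 1 of its 4 libraries (adjusted p 0.087 to 0.181). Mvd, the decarboxylase that makes isopentenyl diphosphate, went the other way in BV2, with 96.6 and 107.4 CPM in normoxia and 209.0 and 210.3 CPM in hypoxia in monoculture (1.04 ± 0.14) and 126.5 and 174.4 CPM in normoxia and 257.9 and 245.0 CPM in hypoxia in co-culture (0.74 ± 0.13). In the 4 GL261 and BMDM settings of the first experiment its differences lay between -0.38 and -0.14 and did not pass the test. Pmvk, the phosphomevalonate kinase between these 2 enzymes, rose in BV2 monocultures (0.88 ± 0.13) and in co-cultured GL261 (0.77 ± 0.19), a call lost without hypoxic replicate 1 (adjusted p 0.0501). It had 46.2 and 34.5 CPM in normoxia and 74.2 and 52.6 CPM in hypoxia in GL261 monocultures (0.65 ± 0.19), a call lost without normoxic replicate 2 or hypoxic replicate 1 (adjusted p 0.104 to 0.119). In co-cultured BMDM Pmvk fell instead (-0.86 ± 0.15).

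Hmgcs1 (chr13:119690379-119708260), the cytosolic HMG-CoA synthase, fell modestly. It had 76.8 and 83.8 CPM in normoxia and 64.9 and 41.3 CPM in hypoxia in GL261 monocultures (-0.59 ± 0.19), a call lost without normoxic replicates 1 or 2 or hypoxic replicate 2 (adjusted p 0.0558 to 0.149). It had 157.5 and 195.2 CPM in normoxia and 144.7 and 132.4 CPM in hypoxia in co-cultured BV2 (-0.35 ± 0.13), a call lost without normoxic replicate 2 or hypoxic replicate 2 (adjusted p 0.0715 to 0.351), and 31, 30.6 and 36.8 CPM in normoxia and 21.5, 20.8 and 29.1 CPM in hypoxia in co-cultured BMDM (-0.46 ± 0.15), a call lost without normoxic replicates 1 or 3 or hypoxic replicates 1 or 2 (adjusted p 0.0564 to 0.117). Idi1, the isopentenyl diphosphate isomerase, fell more steeply in BMDM, from low levels. BMDM monocultures had 6.07 and 4.22 CPM in normoxia and 1.74 and 1.52 CPM in hypoxia (-1.65 ± 0.45), a call lost without normoxic replicate 1 or hypoxic replicates 1 or 2 (adjusted p 0.0957 to 0.146). Co-cultured BMDM had 4.87, 2.84 and 5.01 CPM in normoxia and 0.501, 1.41 and 0.931 CPM in hypoxia (-2.12 ± 0.40), and co-cultured BV2 had 37 and 39.4 CPM in normoxia and 29.5 and 17.7 CPM in hypoxia (-0.69 ± 0.19). Idi1 shares 23.57% of its 75-base words with other genes, most with Gm13502.

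Fdps, the farnesyl diphosphate synthase, was called in opposite directions in different cells. It had 7.48 and 8.77 CPM in normoxia and 14 and 17 CPM in hypoxia in BV2 monocultures (0.93 ± 0.16) and 3.77 and 4.47 CPM in normoxia and 0.945 and 0.759 CPM in hypoxia in BMDM monocultures (-2.26 ± 0.35). Co-cultured BMDM had 5.18, 5.74 and 5.39 CPM in normoxia and 1.3, 2.16 and 1.86 CPM in hypoxia (-1.60 ± 0.27). In GL261 it fell by small amounts in monoculture (-0.71 ± 0.27), a call lost without normoxic replicate 1 or hypoxic replicates 1 or 2 (adjusted p 0.0831 to 0.328), and in co-culture (-0.71 ± 0.27), a call lost without any 1 of its 4 libraries (adjusted p 0.0544 to 0.296). In co-cultured BV2 it rose by 0.41 ± 0.16, a call lost without any 1 of its 4 libraries (adjusted p 0.0535 to 0.271). Fdps overlaps Gm43738 on the same strand over 26.71% of its exon bases, so its counts may hold only part of its reads. Ggps1, which leads away from sterols to protein prenylation, rose in co-cultured BMDM, from 12.8, 13.1 and 11.4 CPM to 21.5, 19.6 and 17.4 CPM (0.65 ± 0.15), and in co-cultured BV2 (0.46 ± 0.13), a call lost without hypoxic replicate 2 (adjusted p 0.0673).

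**Figure D2:**
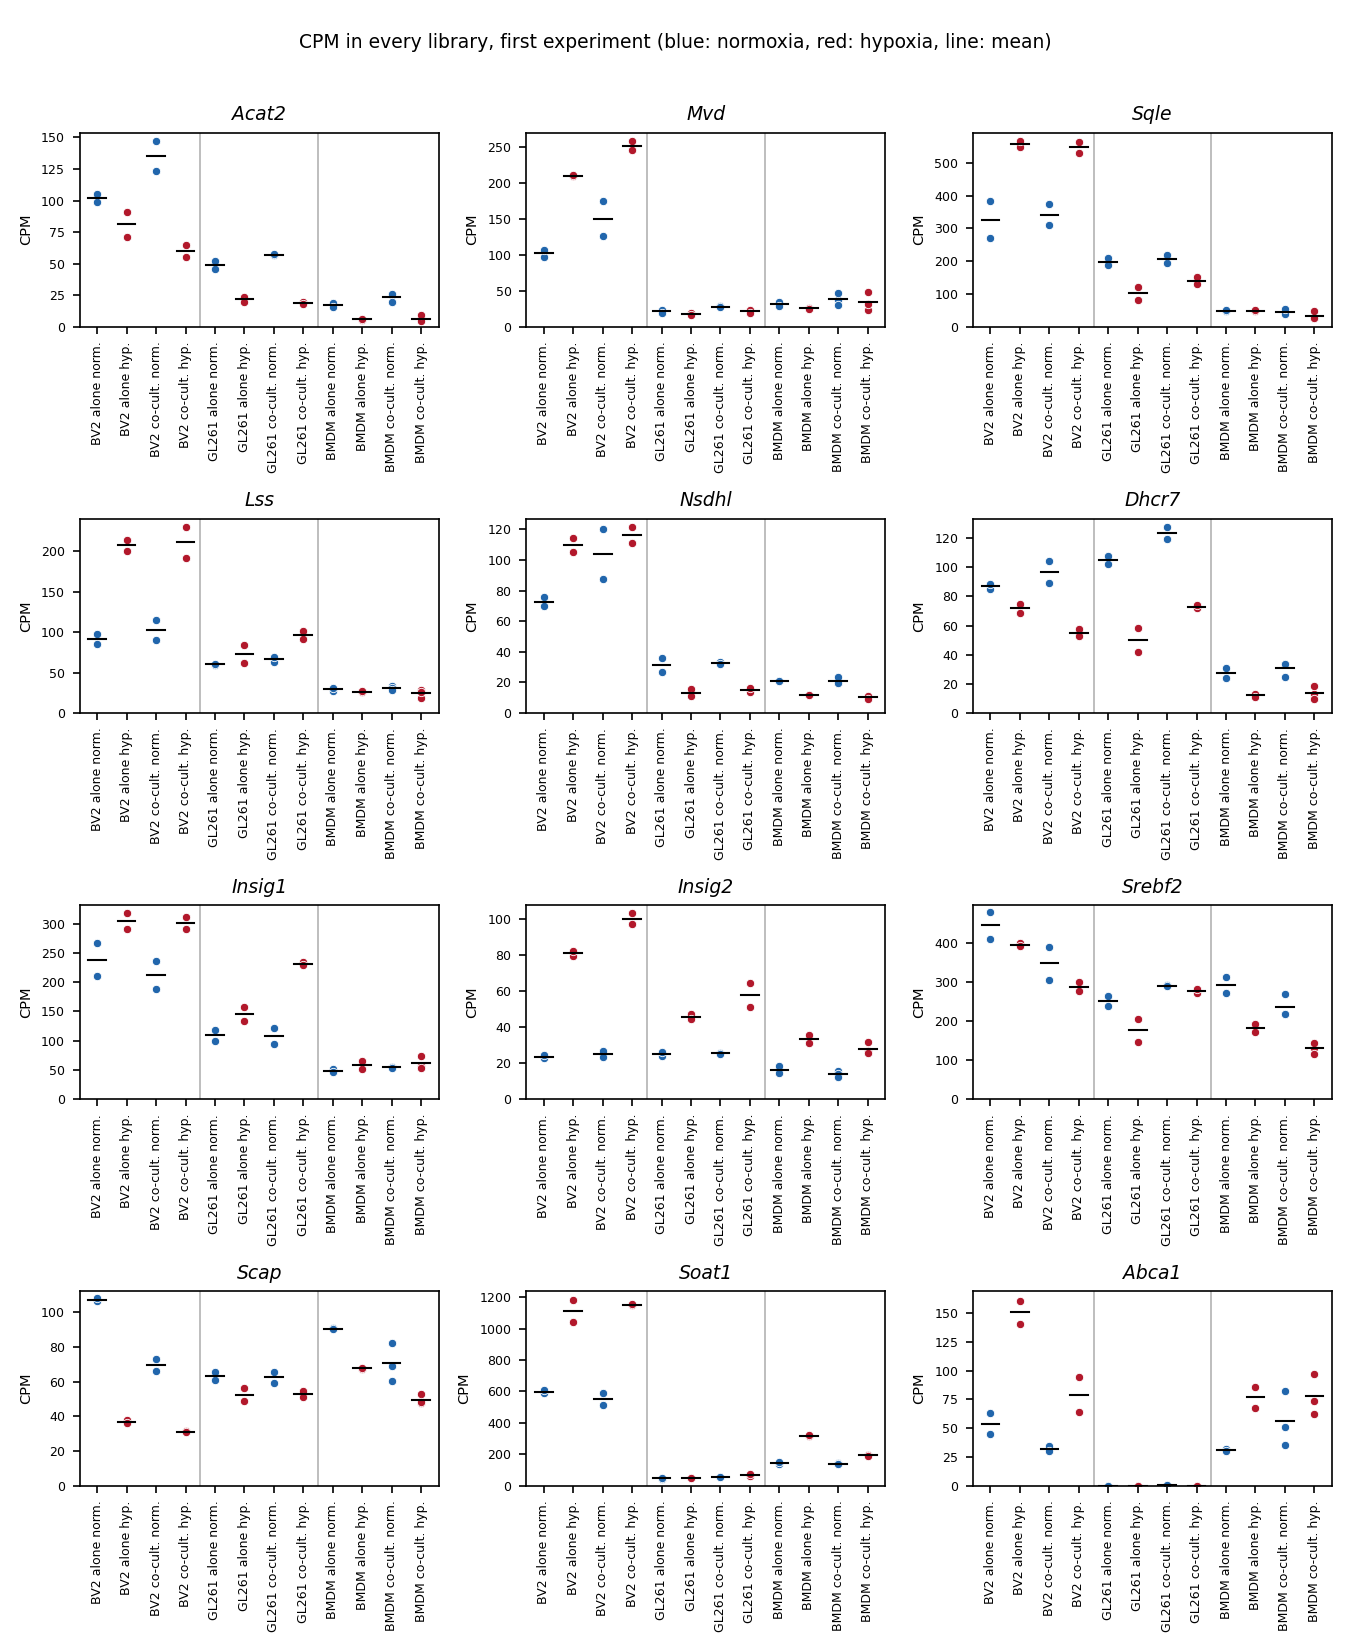
CPM of 12 members (1 panel each) in each library of the first experiment, by cell type and culture; blue points are normoxic and red points hypoxic libraries, the lines are group means, and CPM were scaled within each cell type. Insig2 sits higher and Acat2 lower in hypoxia in all 6 settings, whereas Mvd and Lss separate mainly in BV2.

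The 4 genes of oxygen-using steps did not move as a block: 1 rose in BV2 monocultures and 2 in co-cultured BV2 with none falling, 1 fell in GL261 monocultures, 1 rose and 1 fell in co-cultured GL261, and 2 fell in BMDM in either setting. Sqle (chr15:59315077-59331192), the squalene epoxidase, rose in BV2 and fell in GL261. It had 271.1 and 383.4 CPM in normoxia and 548.3 and 565.7 CPM in hypoxia in BV2 monocultures (0.77 ± 0.15, adjusted p 0.000258) and 310.3 and 373.5 CPM in normoxia and 531.3 and 563.3 CPM in hypoxia in co-cultured BV2 (0.68 ± 0.15). GL261 monocultures had 187.8 and 210.4 CPM in normoxia and 121.1 and 83.2 CPM in hypoxia (-0.96 ± 0.17, adjusted p 0.00112), and co-cultured GL261 had 195.9 and 219.6 CPM in normoxia and 131.5 and 150.9 CPM in hypoxia (-0.56 ± 0.17), a call lost without normoxic replicate 2 or hypoxic replicate 1 (adjusted p 0.129 to 0.145). Normoxic and hypoxic libraries did not overlap in any of these 4 settings. In BMDM the Sqle groups overlapped, and the differences were 0.00 ± 0.27 and -0.42 ± 0.22.

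Cyp51, the lanosterol demethylase, fell in BMDM, with 38.1 and 32.5 CPM in normoxia and 13.2 and 13.7 CPM in hypoxia in monoculture (-1.39 ± 0.24) and 43.4, 34.4 and 46.7 CPM in normoxia and 12.2, 14.9 and 21 CPM in hypoxia in co-culture (-1.37 ± 0.20). In no BV2 or GL261 setting did Cyp51 pass the test; its differences there ran from -0.12 to 0.41. In hypoxic BMDM co-cultures, partner RNA at the measured shares would add 54.4% of the mean Cyp51 level of hypoxic BMDM monocultures. That was the most of any member there, and its part in the value was not tested. Msmo1, a methylsterol monooxygenase, fell in BMDM monocultures, which had 57.3 and 45.2 CPM in normoxia and 36 and 34.2 CPM in hypoxia (-0.55 ± 0.16), a call lost without normoxic replicate 1 or hypoxic replicates 1 or 2 (adjusted p 0.107 to 0.21), and in co-cultured BMDM, which had 46.8, 44.9 and 52.8 CPM in normoxia and 29.4, 30.3 and 35 CPM in hypoxia (-0.61 ± 0.13). In co-cultured GL261 it rose, from 102.4 and 109.9 CPM to 193.7 and 185.5 CPM (0.84 ± 0.15). Sc5d, a sterol desaturase, was called once: co-cultured BV2 had 189.1 and 197.3 CPM in normoxia and 243.4 and 230.3 CPM in hypoxia (0.29 ± 0.11), a call lost without any 1 of its 4 libraries (adjusted p 0.0693 to 0.258).

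Of the 7 other genes between farnesyl diphosphate and cholesterol, 4 rose and 2 fell in BV2 monocultures, 2 rose and 2 fell in co-cultured BV2, 5 fell in GL261 monocultures, 1 rose and 4 fell in co-cultured GL261, and 3 fell in BMDM monocultures and 5 in BMDM co-cultures. Lss (chr10:76531588-76557138), the cyclase that makes lanosterol, had 85.3 and 97.7 CPM in normoxia and 213.9 and 200.8 CPM in hypoxia in BV2 monocultures (1.18 ± 0.13, adjusted p 1.11e-06), the largest rise of a synthesis gene there. Co-cultured BV2 had 90.7 and 114.4 CPM in normoxia and 229.5 and 191.9 CPM in hypoxia (1.04 ± 0.13), and co-cultured GL261 63.2 and 69.3 CPM in normoxia and 101.3 and 91.4 CPM in hypoxia (0.54 ± 0.15), a call lost without normoxic replicate 1 or hypoxic replicate 1 (adjusted p 0.0685 to 0.0944). In BMDM the Lss differences were -0.15 ± 0.20 and -0.33 ± 0.16 and did not pass the test. Fdft1, the squalene synthase, rose in BV2 monocultures (0.88 ± 0.13) and co-cultures (0.64 ± 0.13). It fell in GL261 monocultures (-0.48 ± 0.14), a call lost without normoxic replicate 1 or hypoxic replicate 2 (adjusted p 0.116 to 0.125), and in co-cultured BMDM (-0.47 ± 0.15), a call lost without normoxic replicates 1 or 3 or hypoxic replicates 1 or 3 (adjusted p 0.0748 to 0.0886). Fdft1 overlaps Ctsb, which encodes a lysosomal protease, on the other strand over 18.31% of its exon bases.

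Nsdhl, a sterol dehydrogenase, had 69.9 and 75.7 CPM in normoxia and 105.0 and 114.5 CPM in hypoxia in BV2 monocultures (0.59 ± 0.14) and 35.7 and 26.7 CPM in normoxia and 15.8 and 11.1 CPM in hypoxia in GL261 monocultures (-1.21 ± 0.20). It had 33.6 and 32 CPM in normoxia and 14 and 16.2 CPM in hypoxia in co-cultured GL261 (-1.12 ± 0.20). In BMDM Nsdhl fell in monoculture (-0.80 ± 0.18), a call lost without normoxic replicate 1 or hypoxic replicates 1 or 2 (adjusted p 0.0569 to 0.0765), and in co-culture (-1.03 ± 0.15). Tm7sf2, a sterol reductase, rose in BV2 monocultures by 0.59 ± 0.19, a call lost without normoxic replicate 1 or hypoxic replicate 2 (adjusted p 0.0806 to 0.159). It changed in GL261 monocultures by -0.70 ± 0.19, a call lost without normoxic replicate 1 (adjusted p 0.112), in co-cultured GL261 by -0.72 ± 0.19, a call lost without normoxic replicate 1 (adjusted p 0.0706), and in co-cultured BMDM by -0.72 ± 0.24, a call lost without normoxic replicates 2 or 3 or hypoxic replicate 2 (adjusted p 0.0752 to 0.103). Ebp, a sterol isomerase, fell in GL261, with 38.4 and 34.3 CPM in normoxia and 15.9 and 15.7 CPM in hypoxia in co-culture (-1.20 ± 0.21) and a change of -0.90 ± 0.20 in monoculture. Hsd17b7, a sterol ketoreductase, fell in BV2 and BMDM: the changes were -0.50 ± 0.19 and -0.50 ± 0.19 in BV2 monocultures and co-cultures, and -0.93 ± 0.29 and -1.53 ± 0.25 in those of BMDM. The first 3 of these calls were lost without at least 1 library (adjusted p 0.0647 to 0.274).

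Dhcr7 (chr7:143823145-143848410), the reductase of the final step to cholesterol, fell in all 6 settings. GL261 monocultures had 102.2 and 107.5 CPM in normoxia and 58.5 and 41.8 CPM in hypoxia (-1.06 ± 0.15, adjusted p 0.000274), and the change in co-cultured GL261 was -0.76 ± 0.15. BMDM changed by -1.19 ± 0.30 in monoculture, a call lost without normoxic replicate 1 or hypoxic replicates 1 or 2 (adjusted p 0.05 to 0.116), and by -1.16 ± 0.24 in co-culture. Co-cultured BV2 had 89.1 and 104.0 CPM in normoxia and 57.5 and 52.8 CPM in hypoxia (-0.81 ± 0.12). In BV2 monocultures the change was small, from 85 and 88.8 CPM to 75 and 68.8 CPM (-0.27 ± 0.12), a call lost without any 1 of its 4 libraries (adjusted p 0.0839 to 0.287).

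Storage and transport also differed by cell. Soat1 (chr1:156424525-156474331), which esterifies cholesterol for storage in droplets, rose in BV2 and BMDM and not in GL261. BV2 monocultures had 587.3 and 607.1 CPM in normoxia and 1042.2 and 1180.9 CPM in hypoxia (0.90 ± 0.12, adjusted p 7.04e-06), and co-cultured BV2 had 590.4 and 511.3 CPM in normoxia and 1149.9 and 1154.5 CPM in hypoxia (1.06 ± 0.12). BMDM monocultures had 137.6 and 147.7 CPM in normoxia and 314.0 and 322.6 CPM in hypoxia (1.16 ± 0.13), and co-cultured BMDM had 143.6, 138.6 and 139.8 CPM in normoxia and 197.6, 196.7 and 188.9 CPM in hypoxia (0.47 ± 0.11). Every hypoxic library of these 4 settings was above every normoxic one. In GL261 the Soat1 differences were 0.07 ± 0.13 and 0.33 ± 0.13. Stard4, which carries cholesterol between membranes, had 67 and 81 CPM in normoxia and 113.7 and 125.1 CPM in hypoxia in BV2 monocultures (0.69 ± 0.14). It had 134.1 and 138.9 CPM in normoxia and 186.2 and 183.0 CPM in hypoxia in co-cultured GL261 (0.43 ± 0.15), a call lost without any 1 of its 4 libraries (adjusted p 0.0695 to 0.151). In BMDM Stard4 fell, with 30.7, 28 and 34.6 CPM in normoxia and 18.1, 14.4 and 19 CPM in hypoxia in co-culture (-0.86 ± 0.15) and 30.9 and 26.9 CPM in normoxia and 18.1 and 16.8 CPM in hypoxia in monoculture (-0.73 ± 0.18), a call lost without normoxic replicate 1 or hypoxic replicates 1 or 2 (adjusted p 0.0666 to 0.111). In hypoxic BMDM co-cultures, partner RNA at the measured shares would add 24.6% of the mean Stard4 level of hypoxic BMDM monocultures. Its part was not tested.

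In the LXR arm, 3 genes rose and 2 fell in both BV2 settings, 3 rose and 1 fell in BMDM monocultures, and 1 rose and 1 fell in co-cultured BMDM. The receptor genes went apart. Nr1h2, which encodes the widely expressed LXR beta, rose, with 25.9 and 28.7 CPM in normoxia and 63.3 and 55.6 CPM in hypoxia in BV2 monocultures (1.12 ± 0.12) and 29.8 and 29 CPM in normoxia and 61.5 and 61.8 CPM in hypoxia in co-cultured BV2 (1.07 ± 0.12). Co-cultured BMDM had 149.9, 188.1 and 148.0 CPM in normoxia and 266.3, 269.2 and 247.7 CPM in hypoxia (0.69 ± 0.13), and BMDM monocultures rose by 0.78 ± 0.16, a call lost without normoxic replicates 1 or 2 or hypoxic replicate 2 (adjusted p 0.0644 to 0.0808). Nr1h3, which encodes LXR alpha, fell: co-cultured BMDM had 66.9, 90.6 and 121.5 CPM in normoxia and 16.1, 11.7 and 30.9 CPM in hypoxia (-2.25 ± 0.32). BMDM monocultures changed by -1.51 ± 0.39, a call lost without any 1 of its 4 libraries (adjusted p 0.0577 to 0.114). BV2 held little Nr1h3, with 4.67 and 4.85 CPM in normoxia and 3.06 and 3.18 CPM in hypoxia in monoculture (-0.61 ± 0.22), a call lost without any 1 of its 4 libraries (adjusted p 0.0639 to 0.107). In co-cultured BV2 it changed by -0.63 ± 0.23, a call lost without normoxic replicates 1 or 2 or hypoxic replicate 1 (adjusted p 0.0614 to 0.0782). No Nr1h2 or Nr1h3 difference passed the test in GL261, where they lay between -0.10 and 0.15.

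Both cholesterol exporters rose in hypoxic BV2 and in BMDM monocultures. Abca1 (chr4:53030787-53159895) had 44.9 and 62.8 CPM in normoxia and 141.1 and 161.2 CPM in hypoxia in BV2 monocultures (1.49 ± 0.18, adjusted p 1.86e-06) and 34.3 and 30 CPM in normoxia and 94.4 and 63.7 CPM in hypoxia in co-cultured BV2 (1.30 ± 0.18). BMDM monocultures had 31.8 and 30.4 CPM in normoxia and 67.9 and 85.7 CPM in hypoxia (1.30 ± 0.33), a call lost without normoxic replicates 1 or 2 or hypoxic replicate 2 (adjusted p 0.0994 to 0.115). In co-cultured BMDM the groups overlapped, with 51, 82.3 and 35.2 CPM in normoxia and 97.4, 62.7 and 73.4 CPM in hypoxia (0.47 ± 0.27). Abcg1 had 106.6 and 103.7 CPM in normoxia and 208.5 and 187.0 CPM in hypoxia in BV2 monocultures (0.91 ± 0.11) and 79.9 and 76.5 CPM in normoxia and 112.5 and 98.3 CPM in hypoxia in co-cultured BV2 (0.43 ± 0.11), a call lost without hypoxic replicate 1 (adjusted p 0.103). BMDM monocultures had 44.6 and 45 CPM in normoxia and 124.8 and 134.8 CPM in hypoxia (1.53 ± 0.35), a call lost without normoxic replicates 1 or 2 or hypoxic replicate 2 (adjusted p 0.0597 to 0.0777). Mylip, the ligase that marks lipoprotein receptors for destruction and like the exporters an LXR target, moved the other way in BV2. It had 30.8 and 37 CPM in normoxia and 22 and 23.8 CPM in hypoxia in BV2 monocultures (-0.57 ± 0.13) and 22.8 and 22 CPM in normoxia and 13 and 12.6 CPM in hypoxia in co-cultured BV2 (-0.81 ± 0.14). In co-cultured GL261 Mylip rose, from 21.7 and 16.3 CPM to 26.7 and 31.2 CPM (0.61 ± 0.17), a call lost without normoxic replicate 2 or hypoxic replicate 2 (adjusted p 0.0587 to 0.104).

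Whether BV2 and GL261 monocultures answered hypoxia differently was tested directly, in a fit of both lines, as a difference of 2 log2 fold changes. The response was more positive in BV2 for 17 of 31 members and more negative for 1, against 18.7% and 18.7% of all genes. The median difference was 0.91 for the members and 0.15 for all genes. The 31 include Abca1 and Abcg1, and the 17 include Abcg1. Both failed the filter within GL261 and entered this joint test only through their BV2 level, so the Abcg1 call is no evidence of a difference. Synthesis genes led: the difference was 1.89 ± 0.25 for Nsdhl (adjusted p 9.08e-06), 1.83 ± 0.25 for Sqle, 1.74 ± 0.30 for Fdps, 1.46 ± 0.20 for Fdft1 and 1.37 ± 0.22 for Mvd. For Nsdhl, Sqle, Fdps and Fdft1 this was a rise in BV2 against a fall in GL261, as the changes given above show. Acat2 (0.93 ± 0.20) and Dhcr7 (0.89 ± 0.19) fell in both lines, less in BV2. Scap was the only member called with the opposite sign (-1.16 ± 0.16). The differences of Mvk, Nr1h3 and Mylip were also negative (-0.27 ± 0.27, -0.40 ± 0.31 and -0.52 ± 0.21) and did not pass the test. Outside synthesis, the difference was 1.08 ± 0.17 for Nr1h2, 1.06 ± 0.22 for Stard4, 1.00 ± 0.18 for Insig2 and 0.92 ± 0.19 for Soat1. That of Abcg1 (1.47 ± 0.47) rests on 4 to 7 counts in each GL261 monoculture library. Of the 18 calls, 14 were kept with each library left out in turn. Since the serum of the GL261 monocultures was not given, serum and cell type cannot be told apart here.

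**Figure D3:**
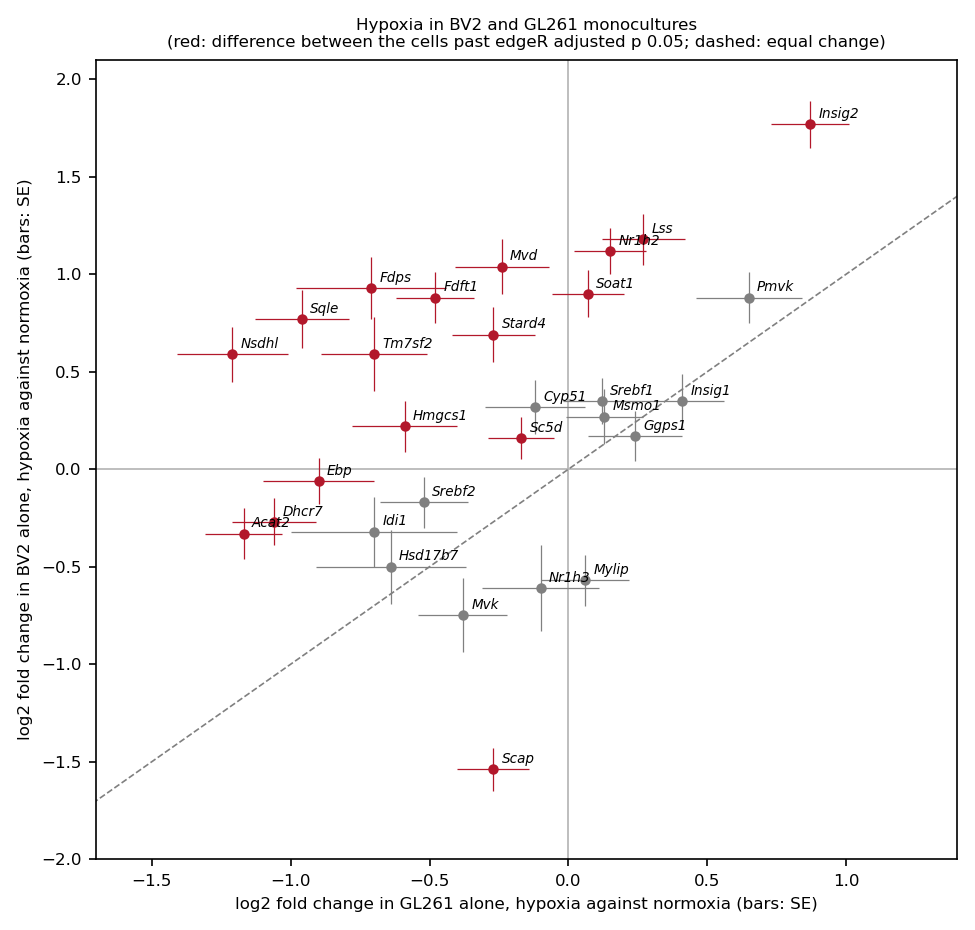
Log2 fold change of hypoxia against normoxia in GL261 monocultures and in BV2 monocultures for the 29 members tested in both, with SE bars; red points passed the test of the difference between the lines and the dashed line marks equal change. Nsdhl, Sqle, Fdps, Fdft1 and Tm7sf2 lie at positive BV2 and negative GL261 values, and Scap is the only red point on the side of the line where BV2 values are lower.

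The co-culture comparisons use the libraries already described, set against one another the other way, so they are not independent of the hypoxia comparisons. In normoxic BV2 cells beside glioma cells 5 of the 19 synthesis genes rose, and Scap, Srebf1 and the 3 LXR targets Abca1, Abcg1 and Mylip fell. Of 31 members 5 thus rose and 5 fell, beside 5.77% and 9.13% of all genes. Fdft1 had 70 and 81.6 CPM in monoculture and 103.0 and 126.9 CPM in co-culture (0.60 ± 0.13), Mvd 96.6 and 107.4 CPM in monoculture and 126.5 and 174.4 CPM in co-culture (0.56 ± 0.13) and Fdps 7.48 and 8.77 CPM in monoculture and 12.4 and 13.4 CPM in co-culture (0.67 ± 0.16). Nsdhl (0.52 ± 0.14) and Pmvk (0.42 ± 0.13) rose as well. Scap had 106.6 and 108.4 CPM in monoculture and 66.1 and 73.3 CPM in co-culture (-0.62 ± 0.11), Srebf1 198.2 and 223.7 CPM in monoculture and 125.6 and 145.1 CPM in co-culture (-0.64 ± 0.12) and Abca1 44.9 and 62.8 CPM in monoculture and 34.3 and 30 CPM in co-culture (-0.74 ± 0.18). Mylip (-0.60 ± 0.13) and Abcg1 (-0.43 ± 0.11) fell too. Co-cultured and monoculture libraries did not overlap for any of these 10. They were picked by their calls, and overlap was not counted over all genes, so this adds no support. The count of 10 became 4 and 3 without monoculture replicates 1 and 2, 7 without co-culture replicate 1 and 3 without co-culture replicate 2, and the call kept throughout was that of Scap. Partner RNA stood at 0.565% and 0.952% in these co-cultures, and its part in these calls was not tested. Without genes high in the partner the count was again 10. That run only adjusts the same p-values over fewer genes, so it cannot show the part of partner RNA.

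In hypoxia, BV2 cells beside glioma cells had less mRNA of the LXR targets: 8 members fell and 0 rose, beside 7.57% and 8.13% of all genes. Abcg1 had 208.5 and 187.0 CPM in monoculture and 112.5 and 98.3 CPM in co-culture (-0.91 ± 0.11, adjusted p 4.35e-05), Mylip 22 and 23.8 CPM in monoculture and 13 and 12.6 CPM in co-culture (-0.84 ± 0.14) and Abca1 141.1 and 161.2 CPM in monoculture and 94.4 and 63.7 CPM in co-culture (-0.94 ± 0.17). These 3 calls were kept with each library left out, and the co-cultured libraries were below the monocultures for each. The other falls had changes near one another: -0.46 ± 0.13 for Srebf2, -0.42 ± 0.13 for Pmvk, -0.38 ± 0.12 for Dhcr7, -0.44 ± 0.14 for Acat2 and -0.57 ± 0.19 for Idi1. The count of 8 became 5 without monoculture replicate 1, 8 without monoculture replicate 2, 10 without co-culture replicate 1 and 4 without co-culture replicate 2. The count was 6 without genes high in the partner. Acat2 and Idi1 were not among the genes removed, and their calls were lost because the same p-values were adjusted over fewer genes. Partner RNA stood at 2.07% and 2.33% in these co-cultures, and the 10 myeloid markers, none at 0, summed to 3710.3 and 3526.4 CPM there against 4768.0 and 4673.6 CPM in the monocultures; the part of either in these falls was not tested. A test of whether hypoxia acted differently in co-culture called 2 members in BV2, both lower in co-culture and none higher, beside 1.03% and 1.16% of all genes: Acat2 (-0.84 ± 0.19, adjusted p 0.0354) and Pmvk (-0.83 ± 0.18, adjusted p 0.0286). Pmvk rose with hypoxia in BV2 monocultures (66 and 73.4 CPM to 134.8 and 121.2 CPM) and not in co-culture (81.5 and 104.1 CPM, and 94.8 and 97.1 CPM). Neither call was kept in every fit with 1 library left out: the count was 0 without monoculture normoxia replicate 1 or 2, monoculture hypoxia replicate 1 or co-culture normoxia replicate 2, 4 without monoculture hypoxia replicate 2, 5 without co-culture hypoxia replicate 1 and 2 without each of the others.

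GL261 cells beside BV2 cells had more Srebf1, Stard4 and Msmo1 mRNA in hypoxia; 3 of 29 members rose and 0 fell, beside 0.889% and 0.5% of all genes. Srebf1 had 223.0 and 190.5 CPM in monoculture and 369.3 and 327.0 CPM in co-culture (0.75 ± 0.14), Stard4 121.8 and 94.4 CPM in monoculture and 186.2 and 183.0 CPM in co-culture (0.77 ± 0.15) and Msmo1 136.2 and 102.8 CPM in monoculture and 193.7 and 185.5 CPM in co-culture (0.67 ± 0.14). All co-cultured libraries lay above the monocultures, yet the calls rest on single libraries: the count was 0 without monoculture replicate 2 or either co-culture replicate, and 8 without monoculture replicate 1. Without genes high in the partner the count was 2. Msmo1 was not among the genes removed, and its call was lost because the same p-values were adjusted over fewer genes. With only these 2 groups fitted the count was 0. In normoxia no GL261 member was called by edgeR, where 0.323% of all genes rose and 0.191% fell. DESeq2 called 0 members. At an unadjusted p under 0.05 edgeR passed 3 members, beside 1287 of 15189 genes. The test of hypoxia by culture called 0 GL261 members (0 by DESeq2) and 0% of all genes in either direction. At an unadjusted p under 0.05 it passed 6 members, beside 1354 of 15189 genes. BMDM beside GL261 cells differed in 1 member, in hypoxia, where 4.06% of all genes rose and 3.05% fell: Soat1 had 314.0 and 322.6 CPM in monoculture and 197.6, 196.7 and 188.9 CPM in co-culture (-0.71 ± 0.12, adjusted p 0.00952). That call was lost without either monoculture replicate, and the count was 1 or 2 without each co-culture replicate. With only these 2 groups fitted it was 0. In normoxia 0 BMDM members were called by edgeR (2 by DESeq2), beside 1.57% and 0.0675% of all genes. At an unadjusted p under 0.05 edgeR passed 4 members, beside 1905 of 14806 genes. The lowest adjusted p of a member was that of Nr1h3, with 38.9 and 38.9 CPM in monoculture and 66.9, 90.6 and 121.5 CPM in co-culture (1.26 ± 0.35, adjusted p 0.119). The test of hypoxia by culture called 0 BMDM members (0 by DESeq2) and 0% of all genes. At an unadjusted p under 0.05 it passed 2 members, beside 636 of 14806 genes.

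In the panobinostat experiment, the hypoxia response of DMSO-treated BV2 cells could be set beside that of untreated ones, with which it shares no library. Here 6 of 31 members rose and 3 fell, beside 17.2% and 20.2% of all genes. The sign seen in the BV2 monocultures of the first experiment was met by 23 of 31 members, an agreement not counted over all genes. Of the 23 members called in those monocultures, 8 were called again, in the same direction, and 15 were not. The 15 were Acat2, Mvk, Fdps, Sqle, Tm7sf2, Nsdhl, Hsd17b7, Dhcr7, Insig1, Srebf1, Stard4, Soat1, Nr1h3, Abca1 and Abcg1. Insig1 and Srebf1, which rose there, had negative changes here. Acat2 had 76.7 and 101.2 CPM in normoxia and 64.1 and 115.2 CPM in hypoxia. Sqle had 465.1 and 339.5 CPM in normoxia and 524.4 and 467.3 CPM in hypoxia. Lss had 123.3 and 100.2 CPM in normoxia and 285.4 and 342.9 CPM in hypoxia (1.49 ± 0.22, adjusted p 0.000886), Mvd 120.9 and 155.3 CPM in normoxia and 304.9 and 341.8 CPM in hypoxia (1.23 ± 0.22) and Insig2 23.4 and 17.1 CPM in normoxia and 64.3 and 53.9 CPM in hypoxia (1.55 ± 0.23). Fdft1 (1.00 ± 0.20), Nr1h2 (1.01 ± 0.21) and Pmvk (0.65 ± 0.22) rose as well, the last a call lost without normoxic replicates 1 or 2 or hypoxic replicate 2 (adjusted p 0.0651 to 0.297). Scap again fell, with 184.9 and 182.9 CPM in normoxia and 52.6 and 73 CPM in hypoxia (-1.55 ± 0.22), as did Mylip, with 26.7 and 21.3 CPM in normoxia and 12.7 and 12.4 CPM in hypoxia (-0.94 ± 0.23), a call lost without normoxic replicate 1 (adjusted p 0.0508). The third fall was that of Ebp, with 38.2 and 29.9 CPM in normoxia and 19.8 and 19.2 CPM in hypoxia (-0.81 ± 0.23), a call lost without normoxic replicate 1 or hypoxic replicates 1 or 2 (adjusted p 0.0635 to 0.0977). Ebp differed by only -0.06 ± 0.12 in the BV2 monocultures of the first experiment. Abca1, called in the first experiment, overlapped here, with 157.3 and 58.1 CPM in normoxia and 308.9 and 151.5 CPM in hypoxia (1.10 ± 0.44, adjusted p 0.0779).

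DMSO-treated BMDM gave no call. The edgeR test passed 0 of 31 members at an adjusted p under 0.05, and 0.469% of all genes rose and 0.0134% fell. At an unadjusted p under 0.05 it passed 21 members, beside 3786 of 14914 genes. DESeq2 passed 13 members, 1 up and 12 down. The median member change was -0.90, that of all genes -0.01. Of 31 members 27 had the sign seen in untreated BMDM monocultures, an agreement not counted over all genes. Nr1h3 had 42.9 and 34.5 CPM in normoxia and 4.21 and 9.96 CPM in hypoxia (-2.46 ± 0.46, adjusted p 0.0729), and Dhcr7 had 20.4 and 28.3 CPM in normoxia and 5.28 and 6.08 CPM in hypoxia (-2.10 ± 0.43, adjusted p 0.0784). Insig2 had 19.2 and 18.4 CPM in normoxia and 56.8 and 39.7 CPM in hypoxia (1.36 ± 0.30, adjusted p 0.0827). The groups did not overlap for 26 of the 31 members, these 3 among them. That share was not counted over all genes. The spread between replicates was the widest of the series (biological coefficient of variation 0.381, against 0.0958 in BV2 of the first experiment). The normoxic replicate 1 named above had 460.1 CPM of Abca1 against 93.6 CPM in replicate 2; without hypoxic replicate 2, 3 members were called. The 10 myeloid markers, none of them at 0, summed to 9615.4 and 6842.1 CPM in the normoxic and 3308.2 and 5058.8 CPM in the hypoxic libraries, and their part in these values was not tested. At an unadjusted p under 0.05 the response differed between BV2 and BMDM for 19 members, beside 2974 of 15955 genes. By adjusted p the BV2 response exceeded that of BMDM for 2 members and fell below it for 0, beside 0.458% and 0.207% of all genes: Pmvk (2.20 ± 0.41, adjusted p 0.0491) and Nsdhl (2.11 ± 0.38, adjusted p 0.0467). This count was 10 without BMDM hypoxic replicate 2, 1 without BMDM normoxic replicate 2 and 0 without each other library.

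With panobinostat 4 members fell in hypoxic BV2 cells and 0 rose, beside 7.39% and 7.21% of all genes; 3 of the 4 belong to supply and the mevalonate steps. This comparison shares its DMSO hypoxia libraries with the hypoxia comparison just given. Acat2 had 64.1 and 115.2 CPM with DMSO and 19.8 and 33.8 CPM with panobinostat (-1.74 ± 0.34, adjusted p 0.0113), and Ebp had 19.8 and 19.2 CPM with DMSO and 7.96 and 9 CPM with panobinostat (-1.20 ± 0.24). Idi1 had 30 and 43.8 CPM with DMSO and 15.3 and 18.4 CPM with panobinostat (-1.13 ± 0.25), and Mvd had 304.9 and 341.8 CPM with DMSO and 172.4 and 191.2 CPM with panobinostat (-0.83 ± 0.21). All panobinostat libraries lay below the DMSO libraries for these 4. Cyp51 (-0.87 ± 0.27, adjusted p 0.0538) and Lss (-0.69 ± 0.21, adjusted p 0.0552) were just short of the threshold. The 10 myeloid markers, none at 0, summed to 4953.2 and 3954.6 CPM with DMSO and 3401.8 and 2836.0 CPM with panobinostat, without overlap; their part in these values was not tested. The count was 4 without DMSO replicate 1, 2 without DMSO replicate 2, 0 without panobinostat replicate 1 and 1 without panobinostat replicate 2. With the replicate number as a block it was 12.

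In hypoxic BMDM the drug gave 0 called members in edgeR (6 by DESeq2), and 0% of all genes were called in either direction. At an unadjusted p under 0.05 edgeR passed 8 of 31 members, near the share of all genes (3868 of 14914). The lowest p of a member was that of Insig1, with 80.9 and 56 CPM with DMSO and 15.1 and 11.8 CPM with panobinostat (-2.35 ± 0.28, adjusted p 0.0509). Srebf1 had 251.0 and 212.6 CPM with DMSO and 90.2 and 78.6 CPM with panobinostat (-1.46 ± 0.24, adjusted p 0.0613), and Hsd17b7 had 3.99 and 7.52 CPM with DMSO and 14.8 and 31.2 CPM with panobinostat (2.01 ± 0.49, adjusted p 0.083). The drug and DMSO libraries did not overlap for these 3 members, a trait not counted over all genes. The same 10 myeloid markers, again none at 0, summed to 716.2 and 1941.7 CPM in the panobinostat libraries, below the hypoxic DMSO libraries; their part in these values was not tested. No member differed between BV2 and BMDM in its drug response by edgeR (6 by DESeq2), beside 0.0188% and 0.00627% of all genes. At an unadjusted p under 0.05 edgeR passed 8 members, beside 1794 of 15955 genes. The lowest p of a member was again that of Insig1 (2.27 ± 0.44, adjusted p 0.131). In BV2 Insig1 had 330.6 and 262.2 CPM with DMSO and 339.3 and 227.0 CPM with panobinostat.

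**Figure D4:**
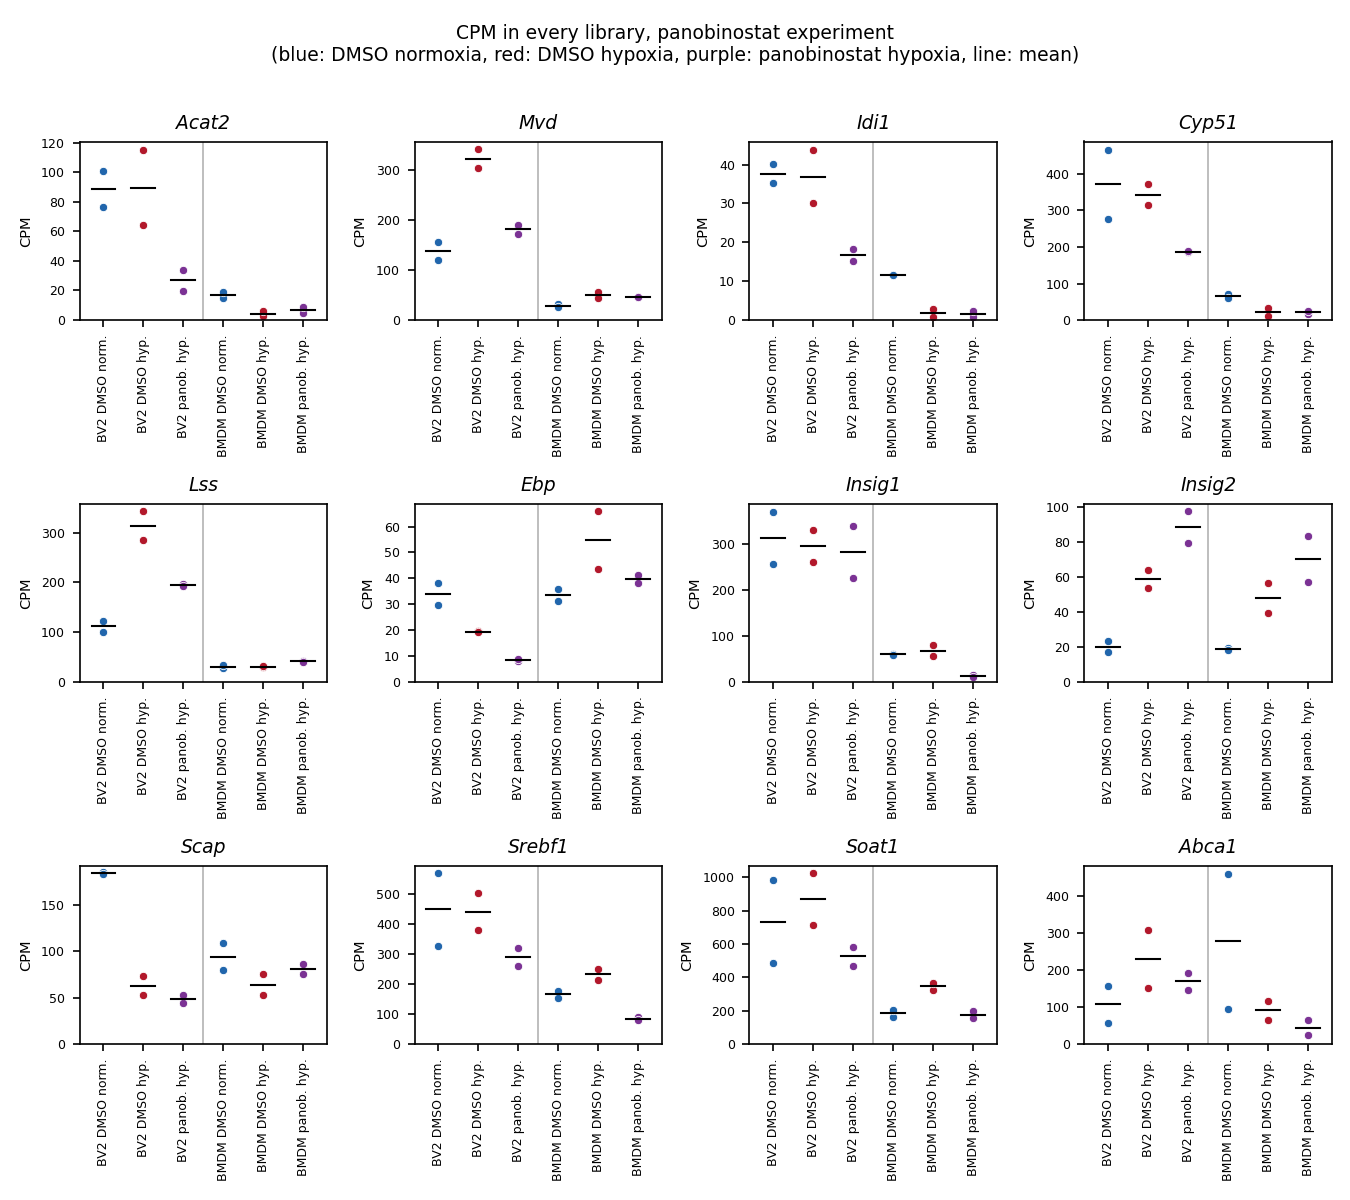
CPM in every library of the panobinostat experiment for 12 members, with BV2 and BMDM scaled separately; blue points are DMSO in normoxia, red points DMSO in hypoxia and purple points panobinostat in hypoxia, and lines are group means. In BV2, Acat2, Ebp, Idi1 and Mvd sit lower with panobinostat than with DMSO in hypoxia; in BMDM, Insig1 reads 80.9 and 56 CPM with DMSO and 15.1 and 11.8 CPM with panobinostat, without passing the test.

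For context, 34 other genes of sterol and lipid handling were counted by the same tests. In hypoxia 12 rose and 10 fell in BV2 monocultures, 16 and 5 in co-cultured BV2 (32 tested each), 10 and 12 in GL261 monocultures, 11 and 9 in co-cultured GL261, 5 and 8 in BMDM monocultures, 5 and 12 in co-cultured BMDM (33 tested each), and 4 and 10 in DMSO-treated BV2 (30 tested). Of all genes, 30.9% and 31%, 35.2% and 32.1%, 23.2% and 21.4%, and 26.8% and 25.6% rose and fell in these BV2 and GL261 settings, in order. The shares were 13.3% and 10.6%, then 17.5% and 17.3%, in BMDM, and 17.2% and 20.2% in DMSO-treated BV2. Several counts lie near this background. The falls in both BMDM settings, GL261 monocultures and DMSO-treated BV2 lie above it. In co-cultured BV2 the rises lie above it and the falls below. Falls beyond the background in BMDM were thus not confined to the 31 members. In DMSO-treated BMDM 0 of 33 were called by edgeR (15 at an unadjusted p under 0.05, beside 3786 of 14914 genes). Lpin1, a phosphatidate phosphatase, and Acss2, which makes acetyl-CoA from acetate, rose in BV2 monocultures by 2.65 ± 0.12 and 2.00 ± 0.15; in GL261 co-cultures they rose by 2.44 ± 0.22 and 3.00 ± 0.20. Elovl6, a fatty acid elongase driven by SREBP, changed by -2.40 ± 0.15 in BV2 monocultures, -2.17 ± 0.12 in GL261 monocultures and -1.95 ± 0.33 in BMDM monocultures. Lbr, a nuclear membrane protein with sterol reductase activity that parallels Tm7sf2, fell in BV2 monocultures (-1.81 ± 0.13), where Tm7sf2 rose. Acly, which supplies cytosolic acetyl-CoA, fell in GL261 monocultures (-1.55 ± 0.16). Vldlr, a lipoprotein receptor gene, rose in BMDM monocultures (2.51 ± 0.37) and GL261 monocultures (1.61 ± 0.12), and Fads2, a fatty acid desaturase, fell in BMDM monocultures (-2.15 ± 0.30). With panobinostat 4 of the 34 fell in BV2, beside 7.39% of all genes. The 4 include Fasn, the fatty acid synthase (-2.25 ± 0.26), and Erlin1, whose protein helps degrade sterol-regulated enzymes (-0.90 ± 0.23). In co-culture Scd1, a stearoyl-CoA desaturase, read 1.36 and 1.87 CPM in hypoxic BV2 alone and 50.3 and 49.8 CPM beside GL261 cells, whose own mean was 2612.7 CPM; with partner RNA at 2.07% and 2.33% there, its part was not tested.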

How the data were processed

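Messenger RNA was sequenced as paired reads from a stranded library kit after glyoxal fixation, per the labels' protocols. The authors deposited 3 tables of raw counts, one row for each Ensembl gene. Per the submitters' processing notes, Trimmomatic 0.36, STAR 2.6, HTSeq 0.9.1, SAMtools, deepTools and, for the lines' libraries, Picard 2.17.1 were used with mm10. Whether counting used strand is not given in the sources used here. Of 55487 identifiers 55141 had a symbol. Each library was placed in its group by its label.

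Counts were fitted with edgeR 4.0.16 in R 4.3.3 (TMM scaling, default low-count filter, quasi-likelihood test, all groups of a cell type and experiment together), separately for BV2, GL261 and BMDM of the first experiment and for BV2 and BMDM of the second. Differences between cell types came from joint fits. P-values were adjusted by Benjamini-Hochberg over all genes tested, with a threshold of 0.05, and SE is the log2 fold change over the square root of its F statistic. The same code was tested on simulated data. Total counts per library ran from 9634700 to 27238933. The filter passed all 31 members except in GL261, where 29 passed.

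Levels per library are given for 15 members of main interest in hypoxia and drug comparisons where they passed the test, and for the 3 largest rises and falls among called members of a comparison. Other members are given by their fold change or a range, and further values by choice after they were seen. Of 34 other lipid genes, up to 2 rises and 2 falls a comparison are named. Members, lists and this rule were chosen with earlier results of these data known.

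Partner RNA was the median over genes of at least 20 CPM and 100-fold higher in the partner. Removing genes high in the partner changed no fit and only adjusted the same p-values over fewer genes. No reported value uses the replicate number as a block unless it says so. The labels do not say that replicate numbers pair libraries, and the block was tried in every fit. Across genes, deviations of same-numbered libraries correlated at 0.517, 0.116 and 0.309 between normoxic and hypoxic BMDM co-cultures. There the block gave 23 called members in place of 22. Between groups of the second experiment they correlated at 0.247 to 0.529 in BV2 and 0.301 to 0.680 in BMDM. In the first experiment they ran from -0.236 to 0.567 in BV2 and from -0.0254 to 0.657 in GL261. With so few libraries, these correlations cannot settle whether the numbers pair them. Alternatives were DESeq2 1.42.0, edgeR with DESeq2's scaling, the low-count filter dropped or set at mean CPM of 5, only the 2 groups compared, the replicate block, removal of genes high in the partner, and each library left out in turn.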

Additional observations from a re-analysis of the deposited data

Results flagged for a closer look

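BV2 and GL261 monocultures answered hypoxia differently for 18 members by an edgeR test of the difference itself (log2, BV2 response minus GL261 response, adjusted p under 0.05 over all genes). In the supply and mevalonate steps the differences were 0.93 for Acat2, 0.91 for Hmgcs1, 1.37 for Mvd and 1.74 for Fdps. In the oxygen-using steps they were 1.83 for Sqle and 0.43 for Sc5d. In the other steps to cholesterol they were 1.46 for Fdft1, 1.01 for Lss, 1.39 for Tm7sf2, 1.89 for Nsdhl, 0.94 for Ebp and 0.89 for Dhcr7. In sterol sensing they were 1.00 for Insig2 and -1.16 for Scap. In transport, storage and the LXR arm they were 1.06 for Stard4, 0.92 for Soat1, 1.08 for Nr1h2 and 1.47 for Abcg1. Abcg1 had 4 to 7 counts in each GL261 monoculture library and failed the filter within GL261. It was tested only through its BV2 level, so its call is no evidence of a difference.

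The hypoxia response of BV2 cells differed between co-culture and monoculture for Acat2 (-0.84) and Pmvk (-0.83), both lower in co-culture. Both calls were lost when single libraries were left out.

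The hypoxia response of DMSO-treated BV2 cells exceeded that of DMSO-treated BMDM for Pmvk (2.20) and Nsdhl (2.11). Both calls were lost when any one of several libraries was left out.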

How the results depend on the processing

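No comparison changed direction for a called member under any alternative run. Counts of called members moved in both experiments. In the first, those of hypoxia against normoxia moved by over 1.5 times only with a library left out. With the replicate block, 14 members were called for hypoxia in DMSO-treated BV2, 10 in DMSO-treated BMDM, 6 for co-culture in hypoxic GL261, 2 for co-culture in normoxic and 2 in hypoxic BMDM, 12 for panobinostat in BV2 and 5 in BMDM, 11 for the hypoxia difference between DMSO-treated BV2 and BMDM, and 2 for the panobinostat difference. The block moved no other count by over 1.5 times, and the numbers are not known to pair libraries. Without a filter on low counts the numbers were 15 for hypoxia in DMSO-treated BMDM, 6 for co-culture in hypoxic GL261, 3 in normoxic BMDM, 8 and 6 for panobinostat in BV2 and BMDM, 5 and 1 for hypoxia by culture in BV2 and BMDM, 12 for the DMSO hypoxia difference and 6 for the panobinostat difference. DESeq2 called 13, 6, 2, 6, 11 and 6 for hypoxia in DMSO-treated BMDM, co-culture in hypoxic GL261, co-culture in normoxic BMDM, panobinostat in BMDM and the same 2 differences. With only the groups compared, co-culture gave 0 in hypoxic GL261, 1 in normoxic BMDM and 0 in hypoxic BMDM. DESeq2's size factors, and a filter at mean CPM of 5, each gave 1 for panobinostat in BMDM, and the latter 5 for the DMSO hypoxia difference. The causes were not tested. With each library left out in turn the counts ran from 8 to 12 for hypoxia in GL261 monocultures, 5 to 10 in BMDM monocultures and 0 to 3 in DMSO-treated BMDM. For co-culture they ran from 3 to 7 in normoxic BV2, 4 to 10 in hypoxic BV2, 0 to 8 in hypoxic GL261 and 0 to 2 in hypoxic BMDM. They ran from 0 to 4 for panobinostat in BV2, 0 to 5 for hypoxia by culture in BV2, 0 to 10 for the DMSO hypoxia difference and 0 to 2 for the panobinostat difference. Groups of 2 libraries, and the wide spread of the second BMDM experiment, limit what could be detected.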
